A study of Homo sapiens with 14 samples.

Results

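Genes that protect cells from electrophiles, oxidants and foreign chemicals were followed in OVCAR-3, an ovarian carcinoma cell line, as it became resistant to PHA-533533, an inhibitor of the cell cycle kinase CDK2. The set was chosen with earlier results of these data known. It held 37 genes taken by name: the transcription factor NRF2 (gene NFE2L2), its partner KEAP1, their known target genes, and enzymes of xenobiotic metabolism. Of these, 35 had an array row naming them alone, out of 18398 genes in all, and the row with the highest mean was used for each. AKR1B1 and FTH1 were not analysed here. The arrays were 14 in number. Parental OVCAR-3 cells grown in medium gave 4 arrays. Sublines R1, R3, R5, R6 and R7 were derived independently and each gave an array in both resistant states. A selected array was taken after drug selection, at passage 5, from cells kept in 4 µM PHA-533533. A stable array was taken from the same subline at passage 10 or later, after further passage in medium with 0 µM inhibitor. Inhibitor and passage thus differ together between the selected and stable states, and their effects cannot be told apart. All cultures were of the same cell line in RPMI medium with serum. A resistant state is thus represented by 5 sublines with 1 array each. No parental array was grown in inhibitor, so between selected and parental cells the presence of inhibitor and acquired resistance cannot be told apart. The passage of the parental cells is not given in the sources used here, and the labels do not say that the 4 parental arrays were grown apart. Tests against them therefore weigh a difference against array spread that may be partly technical.

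In unstressed cells KEAP1 binds NRF2 and directs it to degradation by the proteasome. Electrophiles and oxidants modify cysteines of KEAP1, whereupon NRF2 accumulates and, with a small MAF protein, binds antioxidant response elements in genes for glutathione synthesis, the thioredoxin system, NADPH supply, aldo-keto reductases and quinone reduction. NRF2 is controlled largely at the protein level, and arrays read only its mRNA. CYP1A1 and CYP1B1 belong to a separate arm, induced by the ligand-activated aryl hydrocarbon receptor, which binds xenobiotic response elements.

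The array medians lay between 7.54 and 7.68 log2 units. Signal from 340 olfactory receptor genes, silent in most epithelia and used here as a measure of background, averaged 6.42 ± 0.22 over the parental arrays (SD, n = 4). The corresponding means were 6.35 ± 0.21 for selected cells and 6.50 ± 0.21 for stable cells (both SD, n = 5). Each subline had less of it in the selected than in the stable state, by 0.38 log2 units in R7 and by at most 0.13 in the other sublines. The 9 ovarian epithelial markers had mean signals over the 14 arrays from 9.32 (WT1) to 13.10 (KRT8), with PAX8 at 11.90. The fibroblast marker COL1A1 stood at 9.08 and the other fibroblast markers at 7.78 or below. By limma 5 of the 9 had an unadjusted p under 0.05 in selected against parental cells, where 20.3% of all genes did, and 0 were called. With the arrays of each subline paired, 1 was called higher in selected than in stable cells, beside 3.61% of all genes. Fibroblast, leukocyte, endothelial and mesothelial marker lists had similar summed levels in the groups, and none of their genes was called in the comparisons between groups. In bulk RNA a change in every cell and a change in the share of cells that express a gene cannot be told apart.

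The start regions of the aldo-keto reductase genes AKR1C1, AKR1C2 and AKR1C3 are shown for comparison with each other. Bases before a start do not tell whether array rows share transcripts. AKR1C1, AKR1C2 and AKR1C3 lie together on chromosome 10, and the sequences are 120 bases before each annotated start, read 5′ to 3′ on the gene's own strand from RefSeq (GRCh38.p14). Capitals mark the longest stretch, 12 bases, that the windows of all these starts share.
AKR1C1 (chr10:4963295-4963414, plus strand): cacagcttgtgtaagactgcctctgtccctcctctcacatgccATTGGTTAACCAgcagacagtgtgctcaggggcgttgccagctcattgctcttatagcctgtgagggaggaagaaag
AKR1C2 (chr10:5003858-5003977, minus strand): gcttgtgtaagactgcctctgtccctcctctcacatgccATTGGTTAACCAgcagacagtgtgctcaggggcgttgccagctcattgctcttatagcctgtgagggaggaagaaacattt
AKR1C3 (chr10:5048661-5048780, plus strand): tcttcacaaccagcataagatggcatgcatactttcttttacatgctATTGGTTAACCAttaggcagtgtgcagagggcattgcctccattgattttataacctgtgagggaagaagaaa
AKR1C3, other start (chr10:5094294-5094413, plus strand): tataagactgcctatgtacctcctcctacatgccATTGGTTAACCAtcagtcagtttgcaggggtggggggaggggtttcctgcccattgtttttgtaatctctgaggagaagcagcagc
Over the full windows, 250 bases before to 50 after the start, AKR1C1 and AKR1C2 matched at 93.5% of aligned positions, with 245 identical bases in a row. AKR1C1 and AKR1C3 matched at 73.5% and, for the other AKR1C3 start, at 71.3%.

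The motif of NRF2, searched as TGACNNNGC on both strands, was present in the start windows of 9 of the 29 listed genes that had a window in the RefSeq table: KEAP1, GCLM, GPX2, GSTP1, TXNRD1, PGD, ME1, CBR1 and EPHX1. Counted by window, as some genes have several, it occurred in 10 of their 37 windows and in 13.3% of all 35116 windows. The core of the xenobiotic response element, GCGTG on either strand, was present for 21 of the 29 genes, in 23 of the 37 windows, and in 36.5% of all windows. These examples, of 30 bases each, carry the motif in capitals and belong to genes whose values follow. GCLM holds it on the opposite strand.
GCLM (chr1:93909445-93909474, minus strand): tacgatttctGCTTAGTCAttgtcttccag
GSTP1 (chr11:67583736-67583765, plus strand): gccggcgccgTGACTCAGCactggggcgga
ME1 (chr6:83431169-83431198, minus strand): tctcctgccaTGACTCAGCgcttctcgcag
EPHX1 (chr1:225825266-225825295, plus strand): tgagattggcTGACTTGGCaggactgtgca
CYP1A1, xenobiotic response element core (chr15:74725568-74725597, minus strand): ccagggaaggagGCGTGgccacacgtacaa
A match is a description of these letters and not of binding. Response elements farther from the start lie outside the windows.

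Array signal was higher in selected than in parental cells for 7 of the 35 genes, and lower for none, by limma with Benjamini-Hochberg adjustment over all 18398 genes. NFE2L2, AKR1C2, AKR1C3, SLC7A11, GSR, ALDH3A2 and CYP1B1 rose, and 28 genes did not pass. Across all genes 5.03% were called higher and 1.89% lower in the same comparison, 6.92% in either direction. An unadjusted p under 0.05 was found for 15 of the 35 and for 20.3% of all genes. The median difference of the 35 genes was 0.15 log2 units against -0.01 for all genes, and 27 of the 35 differences were above 0. As the set was chosen with earlier results of these data known, these contrasts with all genes are descriptions and not an independent test. For 9 genes every selected array read above every parental array, where 6.81% of all genes did so, and for none every selected array read below, where 2.96% of all genes did. The 9 were NFE2L2, AKR1C2, AKR1C3, SLC7A11, GSR, PGD, ALDH3A2, CYP1A1 and CYP1B1. The number called was 4 without parental replicate 3, 2 without parental replicate 4, 4 without selected R3 and 4 without selected R7. With every array row tested on its own it was 3, namely AKR1C3, GSR and ALDH3A2. With median centring, or with all 14 arrays in 1 fit, it was 4.

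Stable cells showed no such set. By limma none of the 35 genes passed against parental cells, 1 had an unadjusted p under 0.05 (6.09% of all genes), and 0.00544% of all genes were called. The median difference was 0.06 log2 units against -0.00 for all genes. GSR alone did not overlap between stable and parental arrays, a separation seen upwards for 0.826% and downwards for 1.42% of all genes.

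Between the resistant states, selected cells read above stable cells for AKR1C2, AKR1C3 and ALDH3A2 in the fit without subline, which does not pair the arrays. No gene of the 35 was called lower. In that fit 1.54% of all genes were called higher and 0.614% lower, 2.16% in all. An unadjusted p under 0.05 was found for 9 of the 35 and for 15.3% of all genes. With subline as a block, which pairs the arrays of each subline, 6 genes were called higher (AKR1C2, AKR1C3, ALDH3A2, NQO1, CYP1B1 and EPHX1) and GSTM3 lower, beside 3.61% and 1.31% of all genes, 4.92% together. With subline as a random block 4 were called, AKR1C2, AKR1C3, ALDH3A2 and EPHX1, all higher, and NQO1, CYP1B1 and GSTM3 were not (adjusted p = 0.0583, 0.184 and 0.0733). The 4 genes AKR1C2, AKR1C3, ALDH3A2 and EPHX1 did not overlap between the states, where 2.83% of all genes did not overlap in that direction and 1.33% in the other. The selected array read above its own stable array in all 5 sublines for 9 genes and below it for 2, beside 11.8% and 7.36% of all genes. Without both R7 arrays no gene of the 35 passed limma in the fit without a block (5 had an unadjusted p under 0.05), and 2, EPHX1 and GSTM3, passed with it. With the block and the olfactory receptor mean of each array as a covariate no gene passed limma, and 5 of the 35 had an unadjusted p under 0.05. That fit estimates many terms from few arrays, and its covariate was lower in the selected array of each pair. Background and state can therefore not be fully told apart by it. Leaving out selected R3 or selected R7 also left none of the 35 called without the block, and leaving out stable R5, R6 or R7 left 1.

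**Figure D1:**
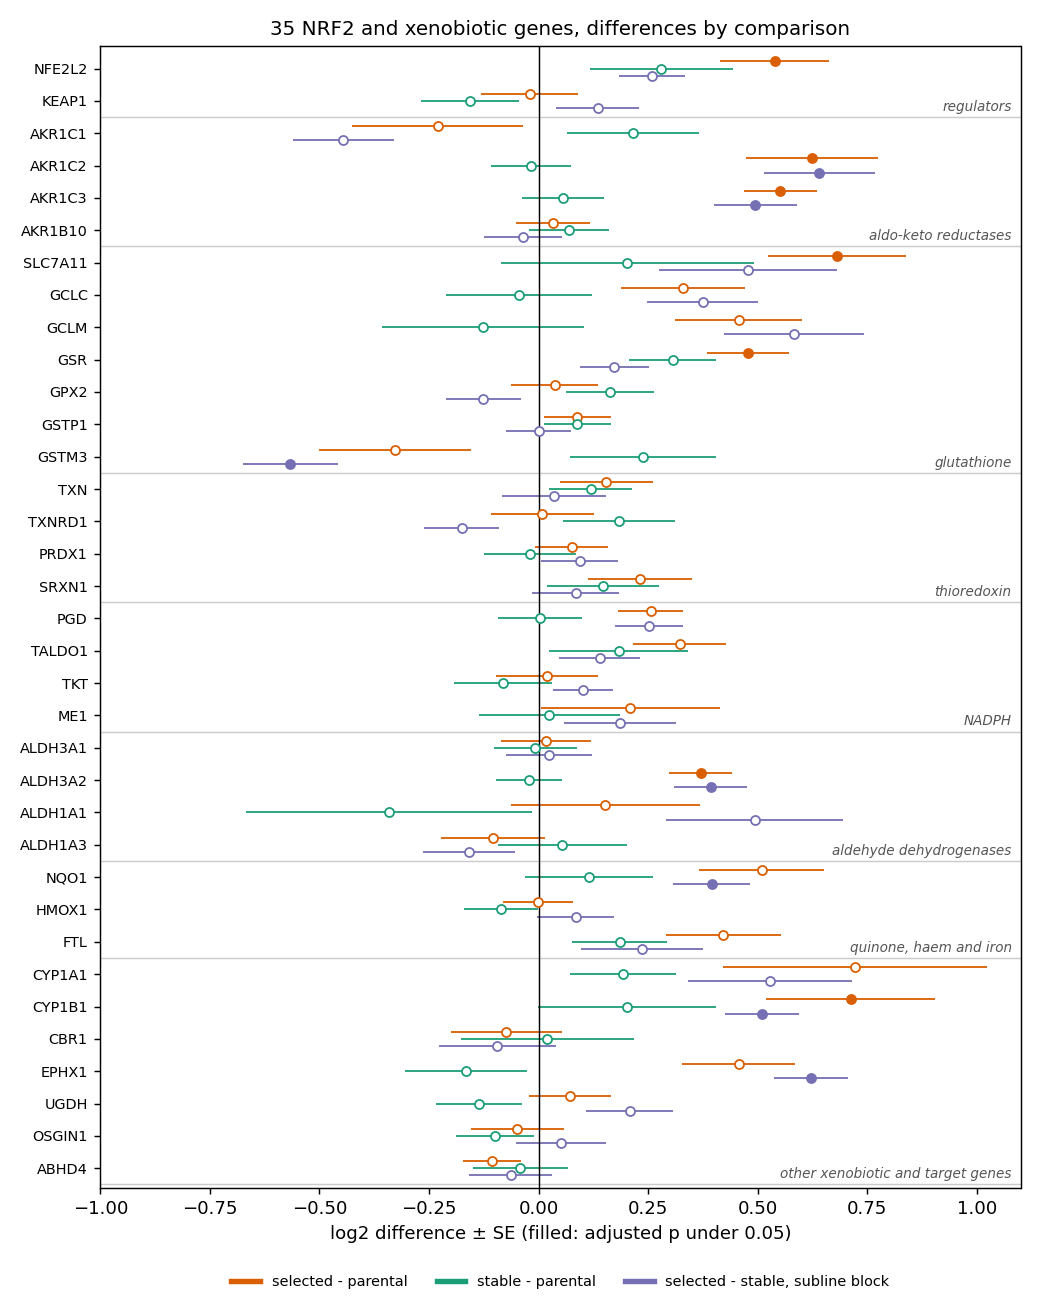
Log2 difference in signal for the 35 genes, ordered by role, in selected against parental, stable against parental and selected against stable arrays, with standard errors from limma. Of the selected against parental differences 27 lie above 0 and 7 passed, and none of the stable against parental differences passed.

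NFE2L2 encodes NRF2 itself. Its log2 signal was 11.07, 10.94, 10.95 and 10.70 on the parental arrays, 11.36, 11.77, 11.58, 11.10 and 11.46 on the selected arrays of R1, R3, R5, R6 and R7, and 11.10, 11.74, 11.28, 10.79 and 11.06 on their stable arrays. All 5 selected arrays exceeded all parental ones, while stable arrays ran from inside the parental range up to the level of R3. The stable R3 array read nearly as high as the selected R3 array. NFE2L2 rose in selected against parental cells by 0.54 log2 units (SE 0.12, adjusted p = 0.0250). The call was lost without parental replicate 3 (adjusted p = 0.0510), parental replicate 4 (adjusted p = 0.0933) or selected R7 (adjusted p = 0.0645), and over all 21 alternatives the adjusted p ran from 0.0079 to 0.0933. It was also lost with every array row tested on its own. Stable against parental the difference was 0.28 (SE 0.16) and did not pass. Selected exceeded stable in all 5 sublines, by 0.03 in R3 and by 0.26 to 0.40 in the others, and the mean difference of 0.26 missed the threshold with subline as a block (adjusted p = 0.0879). KEAP1, the adaptor that targets NRF2 for degradation, lay between 9.18 and 9.63 in parental cells, between 9.10 and 9.56 in selected cells and between 9.10 and 9.55 in stable cells. Its selected against parental difference was -0.02, and the groups overlapped almost fully.

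Aldo-keto reductases of the AKR1C family reduce ketosteroids and reactive carbonyls with NADPH, and AKR1C1 to AKR1C3 are NRF2 targets in human cells. AKR1C2, a hydroxysteroid dehydrogenase, read 7.19, 7.19, 7.36 and 7.10 in parental cells, 7.76, 7.91, 7.77, 7.40 and 8.34 in the selected sublines in the order R1, R3, R5, R6 and R7, and 7.09, 7.004, 7.21, 7.33 and 7.34 in the stable ones. The selected arrays lay above all others, with R7 highest and R6 close to the rest. AKR1C2 rose by 0.62 over parental cells (SE 0.15, adjusted p = 0.0304) and was 0.64 above stable cells (adjusted p = 0.0479, and 0.0309 with subline as a block). Against parental the call was lost without parental replicate 1, 2 or 4 or selected R3 (adjusted p = 0.0774, 0.0628, 0.103 and 0.0684), and over its 20 alternatives the adjusted p ran from 0.0081 to 0.103. That call was also lost with every array row tested on its own. Against stable the call was lost on leaving out any of the arrays except selected R6 (adjusted p from 0.0501 to 0.118), and AKR1C2 was called in 10 of 26 alternatives, with an adjusted p from 0.0168 to 0.743.

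AKR1C3, the family member that makes testosterone from androstenedione and prostaglandin F from prostaglandin D, read 6.08, 6.01, 5.88 and 5.82 in parental cells. It read 6.39, 6.64, 6.46, 6.42 and 6.59 in selected R1, R3, R5, R6 and R7, and 6.15, 5.76, 6.06, 5.98 and 6.07 in the stable arrays. Selected arrays formed a tight group above all others, and stable arrays lay around the parental range. On all 4 parental, all 5 stable and 2 of the 5 selected arrays (R5 and R6) AKR1C3 read below the same array's olfactory receptor mean, so its signal there cannot be told from background and the differences that follow are differences in signal, not a measure of the fold in mRNA. The AKR1C3 signal rose by 0.55 against parental (SE 0.08, adjusted p = 0.0037) and was 0.50 higher than in stable cells (SE 0.09, adjusted p = 0.0195, and 0.0299 with subline as a block). It remained called against parental cells in all 20 alternatives computed for it. Against stable cells it was lost without selected R3 (adjusted p = 0.0583) or selected R7 (adjusted p = 0.0615), and its 26 alternatives ran from 0.0043 to 0.657. AKR1C2 and AKR1C3 are among 7 members dimmer on average than the 40th percentile of all genes, where a log2 difference may understate a change in mRNA.

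AKR1C1, which inactivates progesterone, was read by 2 rows that went opposite ways. The brighter row, 7925918, used for the gene by the highest-mean rule, read 7.22, 7.65, 7.71 and 7.88 in parental, 6.87, 7.35, 7.81, 7.78 and 7.12 in selected R1, R3, R5, R6 and R7, and 7.58, 7.58, 8.07, 7.93 and 7.999 in stable arrays. On it the selected array was the lower one in all 5 sublines, with pair differences from -0.88 to -0.15, and the mean difference of -0.45 did not pass (adjusted p = 0.256, and 0.0621 with the block). The other row, 8180376, read 7.25, 6.73, 7.18 and 6.92 in parental, 7.49, 7.36, 7.27, 7.41 and 7.62 in selected and 6.98, 6.35, 6.90, 6.95 and 7.03 in stable arrays. On it all 5 selected arrays were above all others, as with AKR1C2, by 0.41 against parental (adjusted p = 0.100 over all rows) and 0.59 against stable (adjusted p = 0.0645 over all rows). With both rows averaged the selected against stable difference was 0.07. The 2 rows disagree and their probes were not analysed here, so the direction of AKR1C1 is uncertain. The probes of the AKR1C2 row were not analysed either, so whether that row reads AKR1C2 alone is not known. The start sequences shown above do not tell which transcripts the rows detect. AKR1B10, a reductase of retinal and other aldehydes, ranged from 5.62 to 6.08, below the olfactory receptor mean on all 14 arrays, and its selected against parental difference was 0.03.

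**Figure D2:**
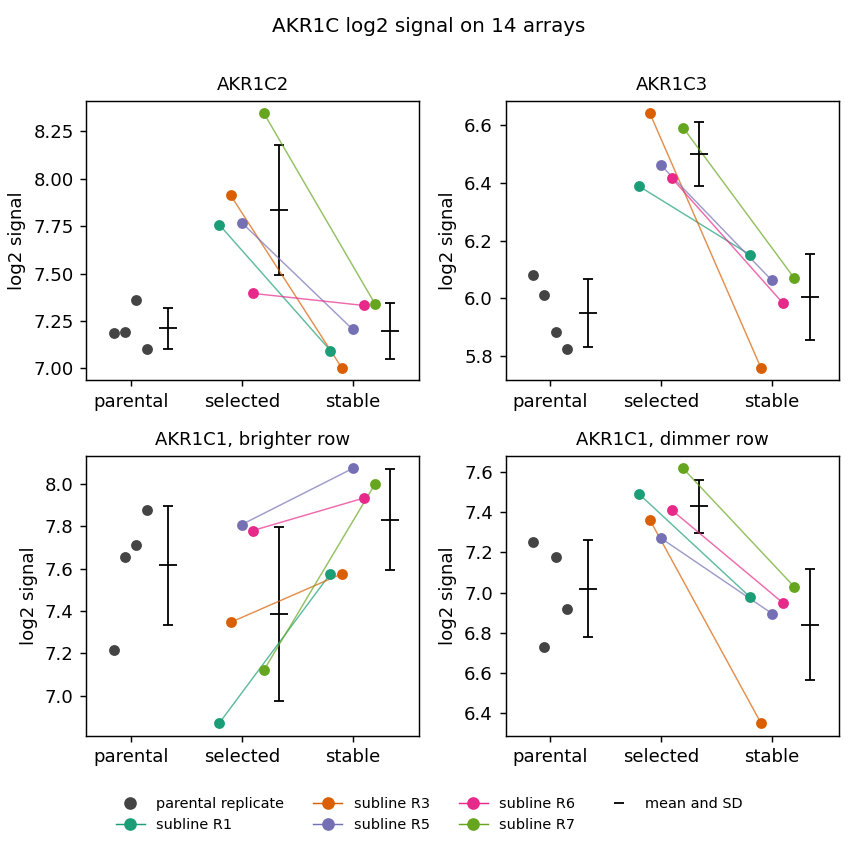
Log2 signal of the AKR1C rows on each array, with parental, selected and stable arrays side by side and lines joining the selected and stable arrays of a subline and bars for the mean and SD. AKR1C2, AKR1C3 and row 8180376 of AKR1C1 are higher in the selected array of each subline, and row 7925918, the brighter row of AKR1C1, is lower.

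Glutathione, the main small thiol of the cell, is made from cystine brought in by the SLC7A11 transporter and joined to glutamate by the ligase of GCLC and GCLM, and GSR returns its oxidised form to use. Of the 7 glutathione genes, SLC7A11 and GSR rose in selected against parental cells and 5 did not pass, with a median difference of 0.33, beside 5.03% of all genes called higher and an all-gene median of -0.01. SLC7A11 read 9.70, 9.64, 9.30 and 9.35 in parental, 10.58, 10.20, 9.98, 9.75 and 10.40 in selected R1, R3, R5, R6 and R7, and 10.17, 10.62, 9.46, 9.26 and 8.99 in stable arrays. All selected arrays exceeded the parental ones, and the stable arrays split, with R1 and R3 above the parental range and R6 and R7 below it. SLC7A11 rose by 0.68 (SE 0.16, adjusted p = 0.0248), and the call was lost without parental replicate 3 (adjusted p = 0.0677), parental replicate 4 (0.0887), selected R3 (0.0541) or selected R7 (0.0701). The call was also lost with every array row tested on its own. Over its 21 alternatives the adjusted p ran from 0.0041 to 0.177. Between the states R3 ran the other way, with a selected minus stable difference of -0.42, while the remaining sublines were higher when selected, by 1.40 in R7, so that the mean difference of 0.48 did not pass (adjusted p = 0.220 with the block).

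GSR, glutathione reductase, read 11.48, 11.42, 11.18 and 11.28 in parental, 11.82, 11.95, 11.81, 11.58 and 11.93 in selected, and 11.51, 11.86, 11.78, 11.53 and 11.55 in stable cells. Both resistant states lay wholly above the parental arrays. Against parental, GSR rose by 0.48 in selected cells (SE 0.09, adjusted p = 0.0122) and was called in all 21 alternatives. The stable difference of 0.31 (SE 0.10) had the smallest unadjusted p of the 35 genes, 0.0104, and did not pass after adjustment (adjusted p = 0.565). Selected exceeded stable in every subline, by 0.03 to 0.38.

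GCLM, the modifier subunit of the ligase, read 7.81, 7.89, 7.32 and 7.63 in parental, 8.37, 8.20, 7.87, 7.82 and 8.32 in selected R1, R3, R5, R6 and R7, and 7.77, 8.28, 7.43, 7.17 and 7.02 in stable arrays. The groups overlapped, and the selected against parental difference of 0.46 (SE 0.14) missed the threshold (adjusted p = 0.0852). In stable R3 it was as high as in selected R3, and in stable R7 it was 1.30 lower than in selected R7. GCLC, the catalytic subunit, lay between 9.02 and 9.39 in parental cells, between 9.23 and 9.94 in selected cells and between 8.69 and 9.57 in stable cells, with a difference of 0.33 (adjusted p = 0.210). In R7 SLC7A11, GCLC and GCLM all had their widest gap between the states. The olfactory receptor mean also had its widest gap there, 6.32 selected and 6.70 stable, and its part in the R7 differences was not tested.

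GSTM3, a glutathione transferase of the mu class, went the other way. It read 9.29, 9.09, 8.97 and 8.82 in parental, 8.58, 8.23, 8.78, 8.69 and 9.28 in selected R1, R3, R5, R6 and R7, and 9.29, 8.87, 9.73, 9.02 and 9.49 in stable arrays. The selected array was the lower of each pair, with differences from -0.94 in R5 to -0.21 in R7, although the groups overlapped. With subline as a block GSTM3 was lower in selected than in stable cells (a difference of -0.57, SE 0.11, adjusted p = 0.0294), and it passed neither without the block (adjusted p = 0.172) nor with subline as a random block (adjusted p = 0.0733). GSTP1, the pi-class transferase, ranged from 12.57 to 12.91 over all arrays and GPX2, a selenium-dependent glutathione peroxidase, from 6.55 to 7.03. Neither passed, with selected against parental differences of 0.09 and 0.04.

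**Figure D3:**
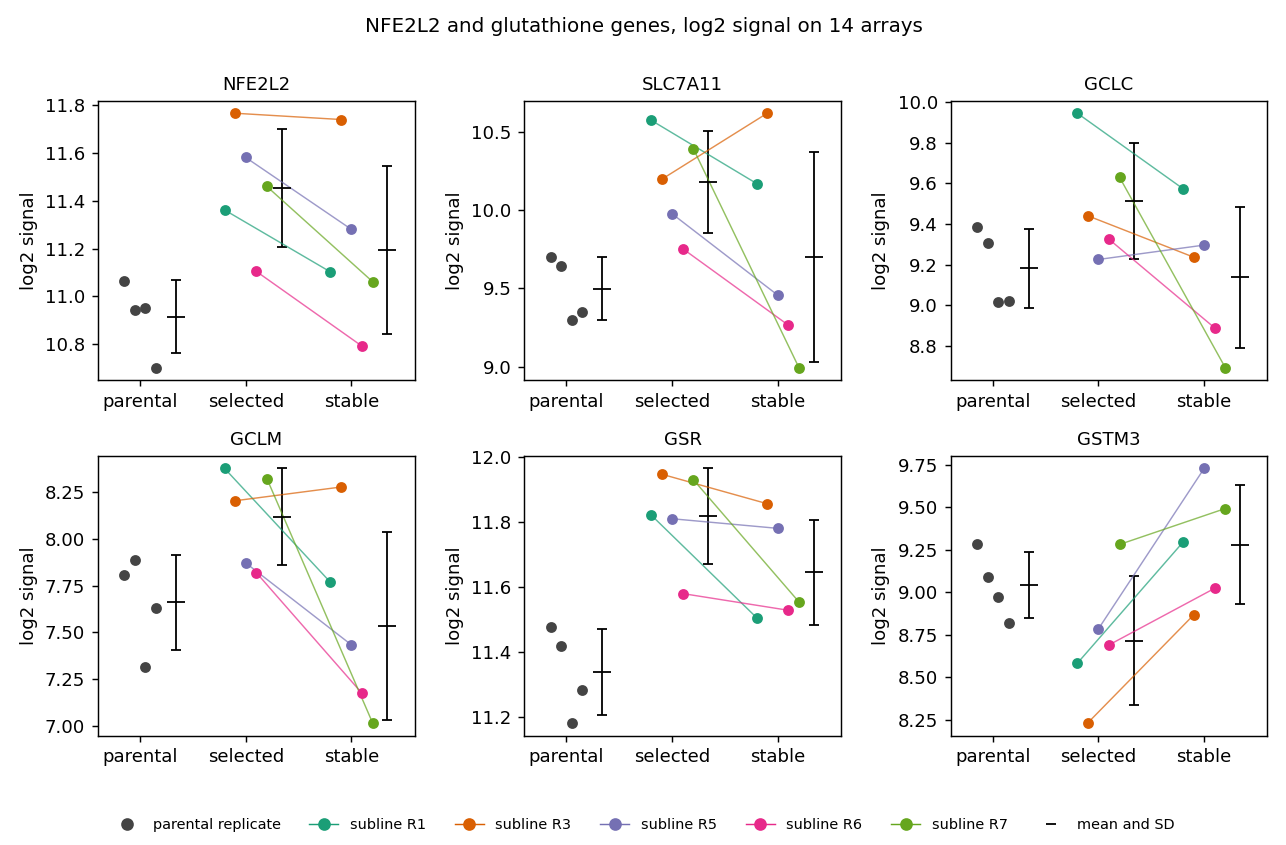
Log2 signal of glutathione genes on each array, by group, with lines joining the arrays of a subline and bars for the mean and SD. All selected arrays of SLC7A11 and GSR lie above the parental ones, the stable arrays of SLC7A11 spread from 8.99 to 10.62, and GSTM3 is lower in the selected array of each pair.

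Thioredoxin (TXN) reduces protein disulphides and is recharged with NADPH by its reductase TXNRD1. The peroxidase PRDX1 uses it to remove peroxides, and sulphiredoxin (SRXN1) restores peroxiredoxins that have been over-oxidised. None of these 4 genes passed in any comparison between groups, and by limma 0 of them had an unadjusted p under 0.05. SRXN1 lay between 8.81 and 9.34 in parental cells, between 9.22 and 9.58 in selected cells and between 9.10 and 9.57 in stable cells, a selected against parental difference of 0.23 (SE 0.12, adjusted p = 0.314). TXNRD1 ran from 10.38 to 10.92 in parental and 10.54 to 10.88 in selected arrays, and its difference was 0.01. TXN and PRDX1 differed by 0.15 and 0.08. The thioredoxin genes thus had a median difference of 0.12 in selected against parental cells, beside 0.33 for the glutathione genes, and the gap between these lists was not tested.

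NADPH for both systems comes from the pentose phosphate pathway, with PGD in its oxidative and TALDO1 and TKT in its non-oxidative branch, and from malic enzyme (ME1). None of the 4 genes passed. PGD came nearest, at 12.50, 12.59, 12.50 and 12.50 in parental, 12.90, 12.72, 12.63, 12.79 and 12.85 in selected R1, R3, R5, R6 and R7, and 12.78, 12.56, 12.35, 12.59 and 12.34 in stable cells. Every selected array exceeded every parental array and its own stable array, but the difference against parental of 0.26 (SE 0.07) had an adjusted p of 0.0591. TALDO1 differed by 0.32 (SE 0.11, adjusted p = 0.0948) and stayed high in stable R1 and R3, at 11.06 and 11.18, with R5, R6 and R7 at 10.45 to 10.57. ME1 stood apart in R1, at 10.92 selected and 10.46 stable, while the remaining resistant arrays ran from 9.70 to 10.29 and the parental ones from 9.74 to 10.18. TKT ranged from 10.86 to 11.47 over all arrays, with a difference of 0.02.

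Aldehyde dehydrogenases oxidise reactive aldehydes to acids. ALDH3A2, the microsomal enzyme for fatty aldehydes, read 9.50, 9.48, 9.40 and 9.38 in parental, 9.68, 9.86, 9.77, 9.92 and 9.82 in selected R1, R3, R5, R6 and R7, and 9.58, 9.35, 9.44, 9.41 and 9.30 in stable cells. The selected arrays did not overlap with either other group, and parental and stable arrays were intermixed. ALDH3A2 rose by 0.37 against parental (SE 0.07, adjusted p = 0.0118) and was 0.39 higher than in stable cells (SE 0.07, adjusted p = 0.0253, and 0.0364 with the block). Without parental replicate 4 the first call missed the threshold (adjusted p = 0.0509), the highest of its 21 alternatives, of which the lowest was 0.0045. The second was lost without selected R3 or R7 or stable R5, R6 or R7 (adjusted p from 0.0555 to 0.0696), and over its 27 alternatives ran from 0.0047 to 0.690.

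ALDH1A1, a retinal dehydrogenase often used as a marker of stem-like tumour cells, varied most between sublines. It read 9.62, 9.13, 9.38 and 8.89 in parental, 8.67, 9.84, 9.58, 9.31 and 9.64 in selected R1, R3, R5, R6 and R7, and 8.40, 8.95, 10.08, 8.16 and 8.99 in stable arrays. The highest and the lowest value both came from stable cells, R5 and R6, and R1 was low in both states. Its differences against parental were 0.15 (SE 0.22) in selected and -0.34 (SE 0.33) in stable cells, neither called. ALDH3A1, the stomach and corneal enzyme, ranged from 7.67 to 8.13 over all arrays. ALDH1A3, another retinal dehydrogenase, ranged from 7.50 to 8.17. Neither passed, with selected against parental differences of 0.02 and -0.10.

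NQO1, the quinone reductase that is a standard readout of NRF2 activity, read 11.03, 10.76, 10.43 and 10.44 in parental, 11.27, 11.20, 11.31, 10.79 and 11.30 in selected R1, R3, R5, R6 and R7, and 10.99, 10.98, 10.82, 10.52 and 10.58 in stable cells. Selected R6 fell short of the other selected arrays, which all exceeded the parental range. The difference against parental was 0.51 (SE 0.14) and narrowly missed the threshold (adjusted p = 0.0537). Each selected array exceeded its stable partner, by 0.22 to 0.72, and with subline as a block NQO1 was 0.39 higher in selected cells (SE 0.09, adjusted p = 0.0404, against 0.140 without the block). HMOX1, the inducible haem oxygenase and also a classical NRF2 target, ranged from 7.25 to 7.63 over all 14 arrays and gave a difference of -0.00. FTL, the ferritin light chain that stores iron, lay between 10.32 and 10.72 in parental cells, between 10.57 and 11.19 in selected cells and between 10.44 and 10.89 in stable cells, and its difference of 0.42 did not pass (adjusted p = 0.0811).

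The cytochromes P450 CYP1A1 and CYP1B1 hydroxylate polycyclic aromatic compounds and oestrogens. CYP1B1 read 6.92, 6.98, 6.77 and 6.98 in parental, 7.89, 8.27, 7.37, 7.10 and 7.49 in selected R1, R3, R5, R6 and R7, and 7.11, 7.93, 6.87, 6.76 and 6.91 in stable arrays. The selected arrays were all above the parental ones, and among stable arrays R3 and R1 were above them too. CYP1B1 rose by 0.71 against parental (SE 0.19, adjusted p = 0.0464) and, with subline as a block, was 0.51 higher than in stable cells (SE 0.08, adjusted p = 0.0198, against 0.366 without it). The call against parental was lost on leaving out any parental array or selected R1, R3 or R7 (adjusted p from 0.0586 to 0.113), and its 20 alternatives ran from 0.0137 to 0.113. It was also lost with every array row tested on its own.

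CYP1A1 read 7.01, 6.92, 7.09 and 6.87 in parental, 7.12, 8.97, 7.51, 7.18 and 7.69 in selected R1, R3, R5, R6 and R7, and 6.95, 7.51, 6.91, 7.29 and 7.15 in stable cells. Selected R3 stood more than 1 log2 unit above every other array. The difference of 0.72 against parental (SE 0.30) did not pass (adjusted p = 0.194), and it was 0.40 (SE 0.13, adjusted p = 0.103) without selected R3, with alternatives from 0.0929 to 0.374. R3 was also the highest subline for CYP1B1 in both states. AHR, the receptor that induces both genes, was singled out after its values were seen. It was 0.65 higher in selected than in parental cells (SE 0.17, adjusted p = 0.0384) and 0.33 higher in stable cells, which did not pass. The first call was lost without parental replicate 1, 3 or 4 or selected R3 or R7 (adjusted p from 0.0524 to 0.103).

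EPHX1, the microsomal hydrolase that opens epoxides formed by P450 enzymes, read 10.92, 10.73, 10.74 and 10.63 in parental, 11.29, 11.60, 11.22, 10.84 and 11.12 in selected R1, R3, R5, R6 and R7, and 10.81, 10.72, 10.77, 10.09 and 10.56 in stable cells. All selected arrays exceeded all stable ones, and selected R6 fell within the parental range. The difference against parental was 0.46 (SE 0.13, adjusted p = 0.0551). With subline as a block EPHX1 was 0.62 higher in selected than in stable cells (SE 0.08, adjusted p = 0.0102), while the fit without the block gave an adjusted p of 0.0671, and 0.0499 without selected R6 or 0.0396 without stable R1, in a range from 0.0102 to 0.468 over 27 alternatives. CBR1, a carbonyl reductase, UGDH, which makes the UDP-glucuronic acid used in glucuronidation, OSGIN1, an oxidative stress response gene, and ABHD4, a lipid hydrolase, did not pass in any comparison between groups. Their selected against parental differences were -0.07, 0.07, -0.05 and -0.11.

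**Figure D4:**
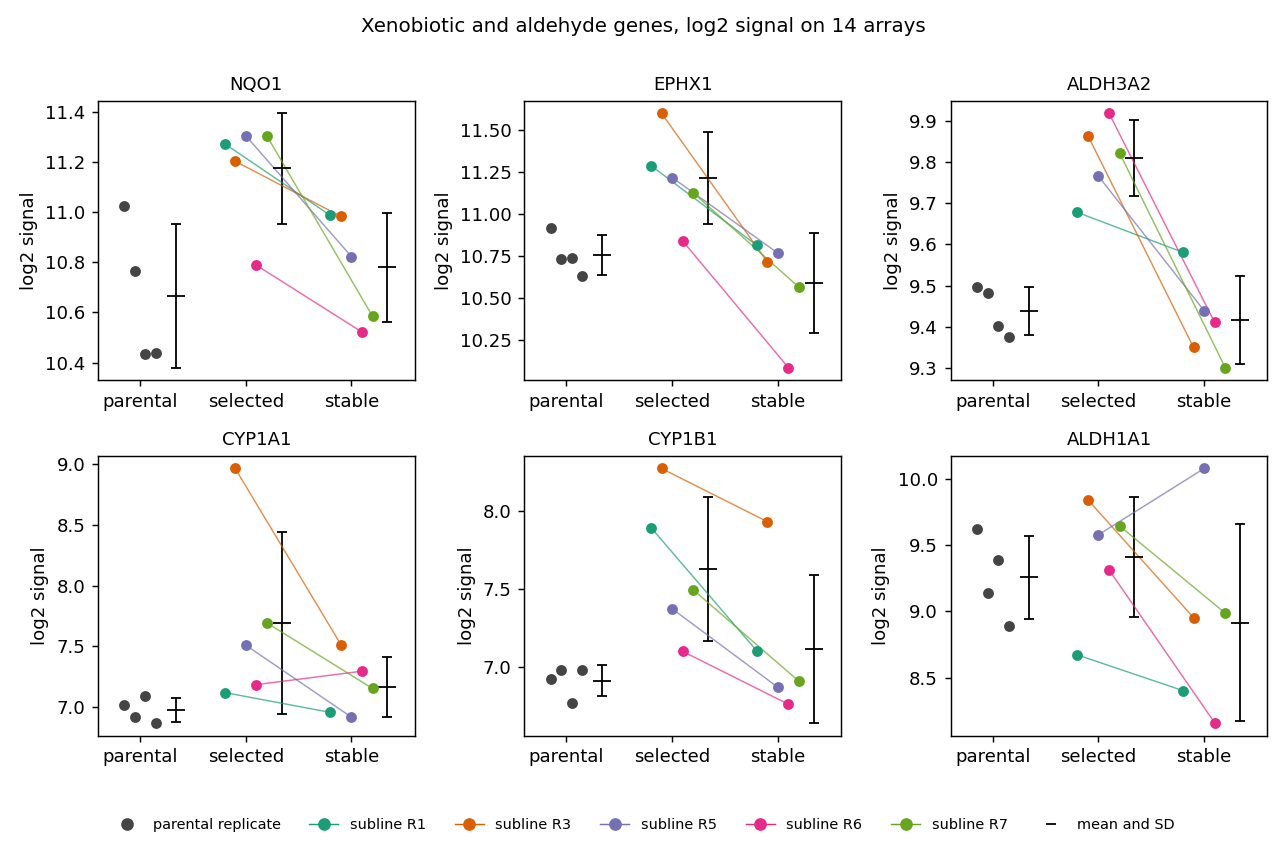
Log2 signal of NQO1, EPHX1, ALDH3A2, CYP1A1, CYP1B1 and ALDH1A1 on each array, by group, with lines joining the arrays of a subline and bars for the mean and SD. The selected array is the higher of each pair for ALDH3A2, NQO1, CYP1B1 and EPHX1, and CYP1A1 in selected R3 stands at 8.97.

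Differences between the 5 sublines, tested over both states with growth condition as a covariate, reached no call among the 35 genes by limma, with 11 at an unadjusted p under 0.05 (15.8% of all genes), beside 0.12% of all genes called. CYP1B1 came nearest, with subline means 1.17 log2 units apart (adjusted p = 0.0565), followed by NFE2L2 with a range of 0.80 (adjusted p = 0.115) and EPHX1 with 0.69 (adjusted p = 0.150). ALDH1A1, with 1.29, and CYP1A1, with 1.20, had wider ranges and a wider spread between the arrays of a subline. R3 had the highest subline mean for NFE2L2, CYP1A1 and CYP1B1. Leaving out selected R3 gave 3 called genes, and with 2 arrays per subline this comparison has little precision.

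A wider list of 97 measured genes of the same pathways was also chosen with earlier results of these data known. It gave 13 higher, 1 lower and 83 not called in selected against parental cells, with a median difference of 0.05 log2 units. Of all genes 5.03% were called higher and 1.89% lower. The smallest p-values belonged to MGST3, a microsomal glutathione transferase, which rose by 0.71 (SE 0.08, adjusted p = 0.0011), ALDH9A1, an aminoaldehyde dehydrogenase, by 0.43 (adjusted p = 0.0057), and SESN1, a sestrin, by 0.49 (adjusted p = 0.0085). The carbonyl reductase CBR4, the NRF2 relative NFE2L1 and the constitutive haem oxygenase HMOX2 followed, at 0.77, 0.35 and 0.44. MGST3, ALDH9A1, SESN1 and CBR4 were called in every alternative, while NFE2L1 and HMOX2 were lost without parental replicate 4 (adjusted p = 0.0662 and 0.0674, the highest of their alternatives). The 1 gene that fell was MAFF, a small MAF protein, with a difference of -0.44 (adjusted p = 0.0270), named here after its values were seen, and it was lost without parental replicate 2 or 4 or selected R3 or R7 (adjusted p from 0.0568 to 0.101). Of the 10 further NADPH genes and the 18 further genes of phase I and II metabolism and export, none passed by limma, with 2 and 5 at an unadjusted p under 0.05, where 20.3% of all genes were. Stable against parental, 0 of the 97 passed limma, with 9 at an unadjusted p under 0.05, beside 6.09% of all genes.

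Between the resistant states, 7 of the 97 were called higher in selected than in stable cells and none lower, beside 1.54% and 0.614% of all genes. With subline as a block 9 were higher and 1 lower, beside 3.61% and 1.31%. CBR4 was 0.86 higher (adjusted p = 0.0207, and 0.0091 with the block), ALDH7A1, an aldehyde dehydrogenase of lysine breakdown, 0.73 higher, SESN1 0.44 higher and MGST3 0.43 higher. ALDH9A1 and glutaredoxin (GLRX) were 0.33 and 0.71 higher. All 6 were lost without selected R3, selected R7, stable R5 or stable R7 (adjusted p from 0.0547 to 0.117), and in part on leaving out the remaining arrays. Without both R7 arrays none of the 6 was called (adjusted p from 0.152 to 0.253). In the blocked fit GSTA1, an alpha-class glutathione transferase, was the 1 gene called lower, with a difference of -0.39 (adjusted p = 0.0361), and it was singled out after its values were seen. The comparisons with parental and with stable cells share the selected arrays, so the recurrence of MGST3, ALDH9A1, SESN1 and CBR4 in both is not independent.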

How the data were processed

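RNA of 14 OVCAR-3 samples was biotin-labelled by the Affymetrix whole-transcript procedure and hybridised, per the labels' protocols. The deposited values were used as log2 signal. Base 2 was inferred from their range, 4.34 to 14.9, and how the authors corrected background, normalized and summarised is not given in the sources used here. Of 32295 rows, 19148 name 1 gene, 1376 several and 11771 none in the platform annotation. Gene IDs gave current symbols in a RefSeq table, which held 19118 of the rows, and for the 633 genes with several rows the one with the highest mean was kept, giving 18398 genes.

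Group membership comes from the labels. Comparisons were fitted with lmFit and eBayes of limma 3.58.1 under R 4.3.3. Two-sided p-values were adjusted by Benjamini-Hochberg across the whole gene table, with 0.05 as the threshold, and the procedure was checked on simulated data. Selected and stable arrays of a number are the same subline, so subline pairs them. Their deviations from the group means correlated across genes with coefficients, for R1, R3, R5, R6 and R7, of 0.636, 0.0497, 0.371, 0.546 and -0.468. Only R1 and R6 matched their own stable array best, and selected R3, R5 and R7 correlated best with the stable arrays of R5, R7 and R1 (0.118, 0.637 and 0.397). The pairing therefore rests on the labels. The part of background, such as the olfactory receptor mean, in these correlations was not tested. A best match in 2 of the 5 sublines thus does not establish the pairing. The blocked value is printed where it changes a call. Sequences are from RefSeq (GRCh38.p14), where 29 of the 37 listed genes had a start window of 300 bases.

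The genes and lists were chosen with earlier results of these data known. All listed genes may be named, and of the wider list up to 6 per comparison by smallest p. Alternatives covered variance options, array weights, normalization, a filter on dim genes (28 of 35 genes kept), the row rule, the olfactory receptor mean, blocks and each array left out. The number of arrays limits the precision.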

Additional observations from a re-analysis of the deposited data

Results flagged for a closer look

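Over 105 groups of 4 or 5 arrays, 3 held an array far from the others by Dixon's criterion, where chance picks out about 1 in 20. PGD in parental replicate 2 read 12.59 while the other parental arrays lay close together, a gap of 0.957 of the group's range. NQO1 in selected R6 read 10.79, a gap of 0.803 of the range. R6 was also the lowest selected array for NFE2L2, AKR1C2, SLC7A11, CYP1B1 and EPHX1, and the highest for ALDH3A2. Selected R6 had the highest olfactory receptor mean of the selected arrays, 6.60, and its part in these values was not tested. HMOX1 in parental replicate 2 read 7.37, a gap of 0.876 of the range.

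Tested as selected against stable, the difference from the shared parental arrays was not the same in both states for 3 genes. The gap was 0.64 for AKR1C2, 0.50 for AKR1C3 and 0.39 log2 units for ALDH3A2. In each, all 5 sublines read higher in the selected state. Each of these pairs also had less olfactory receptor signal when selected, and with that mean as a covariate AKR1C3 and ALDH3A2 were called and AKR1C2 was not (adjusted p = 0.0682). With subline as a block and that covariate the differences were 0.30, 0.45 and 0.34 for AKR1C2, AKR1C3 and ALDH3A2 (adjusted p = 0.743, 0.657 and 0.690), within the ranges over alternatives given with each gene.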

How the results depend on the processing

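The selected against parental comparison called 1273 genes and 7 of the 35. With median centring it called 800 and 4, with the covariate (each array's olfactory receptor mean) 2318 and 13, with all rows tested one by one 703 and 3, and without both R7 arrays 621 and 4. As no stable array enters this comparison, that last fit is the same as the one without selected R7. The tallies of alternatives for this comparison count it under both names. With all 14 arrays in 1 fit 4 of the 35 were called, also with a random replicate block. Leaving out 1 array gave 517 to 1343 genes and 2 to 10 of the 35. Stable against parental called 1 gene, 2 with trended variance, 286 with array weights, 4 without dim genes, 75 with the covariate, 8 with all 14 arrays in 1 fit and 7 with its random block, and 1 to 26 leaving out 1 array. None of the 35 was called by limma in any of these, where 1 to 6 had an unadjusted p under 0.05.

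Selected against stable called 397 genes and 3 of the 35. The replicate block, which pairs the arrays of a subline, gave 906 and 7, a random replicate block 883 and 4, and the block with quantile normalization 981 and 9, with median centring 122 and 1, with the olfactory receptor mean 0 and 0 (1309 genes at an unadjusted p under 0.05), and without R7 159. Without the block, array weights gave 1480 and 8, quantile normalization 614, median centring 81 and 1, all rows one by one 166, all 14 arrays in 1 fit 680, and leaving out R7 0 and 0 (1756 at an unadjusted p under 0.05). The covariate moved the split from 284 higher and 113 lower to 292 and 237. Leaving out 1 array gave 86 to 962 genes and 0 to 4 of the 35. Between sublines 22 genes and 0 of the 35 passed, 425 and 2 with trended variance, 41 and 1 with robust variance, 1389 and 6 with array weights, and 0 genes with quantile normalization, median centring, the covariate or all rows one by one (2500, 2632, 798 and 2664 at an unadjusted p under 0.05). Leaving out 1 array gave 0 to 410 genes and 0 to 3 of the 35.

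Over the named calls and alternatives 507 values kept their side of the threshold, 175 lost it, 21 gained it and 0 changed sign. Each alternative was compared with the fit without a block. Genes called only with subline as a block thus count as kept where they stayed uncalled. In selected against parental the uncalled NQO1, PGD and EPHX1 passed in 6, 5 and 5 of 21 alternatives. Among other uncalled genes, GCLM, TALDO1 and FTL passed limma with the covariate (adjusted p = 0.0087, 0.0097 and 0.0419). FTL also passed without selected R1 (adjusted p = 0.0253). AKR1C1, uncalled, changed sign when its rows were averaged. Median centring with the block, quantile normalization with the block and the block without R7 were chosen after seeing the data. The cause of these shifts was not tested.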

Other observations

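In R3 the stable array read 11.74 for NFE2L2, 10.62 for SLC7A11, 8.28 for GCLM, 11.18 for TALDO1 and 7.93 for CYP1B1, each above the highest parental array. In R7, whose selected array was among the highest for SLC7A11, GCLM and NQO1, the stable array read 8.99, 7.02 and 10.58 for the same genes, below all parental arrays for SLC7A11 and GCLM and within their range for NQO1. The stable R7 array also had the highest olfactory receptor mean of the resistant arrays, 6.70 against 6.32 in selected R7, and its part in these values was not tested. These sublines were singled out after their values were seen, each state of a subline is 1 array, and the difference between sublines was not called for any of these genes by limma over all genes.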
